A study of Mus musculus with 26 samples.

Results

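The transcripts of 10 genes that write or erase N6-methyladenosine (m6A) were followed through muscle regeneration and through a knockdown of Mettl3 in myoblasts. The genes were taken by symbol from both deposited expression tables. They were 8 writers, Mettl3, Mettl14, Mettl16, Wtap, Zc3h13, Rbm15, Rbm15b and Cbll1, and 2 erasers, Fto and Alkbh5. All 10 were found, 10 of 53465 genes in the regeneration table and 10 of 55487 in the knockdown table, and all 10 passed the filter on low values in each (16753 and 13824 genes tested).

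m6A is an adenosine that carries a methyl group on its base nitrogen, and reader proteins that bind it act on the fate of the transcript. The mark is placed in the nucleus by a complex in which METTL3 transfers the methyl group from S-adenosylmethionine, METTL14 binds the RNA beside it, and WTAP, VIRMA, ZC3H13, CBLL1 (HAKAI), RBM15 and RBM15B hold the complex together and guide it to its sites. METTL16 is a separate methyltransferase that acts on the U6 small nuclear RNA and on the Mat2a transcript, while FTO and ALKBH5 are demethylases that remove the mark.

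The regeneration libraries came from tibialis anterior (TA) muscle of 6-week-old male C57BL/6J mice, per the methods, collected after cardiotoxin (CTX), a venom protein that destroys muscle fibres, had been injected, with 2 libraries for each of days 0, 1, 3, 5 and 10. Whether day 0 muscle was untouched or was given saline, the control named in the methods, is not settled by the sources used here. The cell libraries came from C2C12, a mouse myoblast line, labelled CTRL or Cas9M3 and collected on D0 in growth medium (GM) or on D3 of differentiation, with 2 libraries in each of the 4 groups. Per the methods, Mettl3 was repressed by dCas9-KRAB, a Cas9 that cannot cut fused to a transcriptional repressor, expressed from the hUbC promoter and aimed at the Mettl3 promoter in stable cells selected with puromycin. The design text speaks of wildtype cells and knockout derivatives instead, and neither the guide used nor any construct in the CTRL cells is given by the labels. The labels do not say that replicates came from separate mice or cultures, so the tests measure the spread between libraries, which may be technical. With 2 libraries against 2, an exact permutation test of a single value cannot go below p = 0.333, so the tests below borrow the spread of all genes tested.

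Values are FPKM, read fragments normalised by gene length and library size. The steps between low values implied 14170000 to 18820000 reads on genes per muscle library. In cells they implied 25160000 to 29560000 for replicate 1 and 14230000 to 18890000 for replicate 2. At that depth a member rested on 90 to 2746 reads per muscle library and 153 to 9709 reads per cell library, leaving aside Mettl3 in Cas9M3 cells and Wtap in muscle, whose values were not whole multiples of the step. Loci of ribosomal RNA took 0.412% to 0.536% of reads in the replicate 1 cell libraries and 8.22% to 28.7% in replicate 2, the most in CTRL GM replicate 2. Although the methods name male mice, Xist, the RNA of the inactive X chromosome, stood at 5.78 to 10.0 FPKM in 5 muscle libraries (both of day 0, both of day 10, and day 3 replicate 2) and at 0.0170 to 0.152 FPKM in the other 5. For members called between days, the comparisons that rest on those libraries are therefore also given with a term for Xist or without a library. The day comparisons of Virma, Mat2b and the reader genes below come from the main fit alone.

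The sequences ahead of 3 of the genes are shown because the knockdown acts on the Mettl3 promoter and because the 2 erasers are compared below. Each is the run of 250 bases before the RefSeq start (GRCm38.p6), 5′ to 3′ on the strand of the gene. Such windows were at hand for 9 of the 10 members, all but Mettl14. The windows are chr14:52305125-52305374 on the minus strand for Mettl3, chr8:91313275-91313524 on the plus strand for Fto and chr11:60537433-60537682 on the plus strand for Alkbh5. Capitals mark matches on either strand to the CCAAT box (CCAAT), the GC box (GGGCGG), an ETS site (CCGGAAG), the E-box (CACGTG), the TATA box (TATAAA) and the core of the YY1 site (AANATGGC), the last added after the Mettl3 sequence had been seen.
Mettl3: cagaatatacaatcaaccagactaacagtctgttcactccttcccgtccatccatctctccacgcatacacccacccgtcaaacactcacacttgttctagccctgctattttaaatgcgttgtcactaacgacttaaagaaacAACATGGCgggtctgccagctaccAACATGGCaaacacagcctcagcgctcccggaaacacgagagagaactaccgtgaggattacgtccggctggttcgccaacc
Fto: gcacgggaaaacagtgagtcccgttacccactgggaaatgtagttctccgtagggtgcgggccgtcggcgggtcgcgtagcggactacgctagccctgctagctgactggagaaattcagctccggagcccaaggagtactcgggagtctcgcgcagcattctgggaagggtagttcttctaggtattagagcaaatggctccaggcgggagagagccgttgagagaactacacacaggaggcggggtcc
Alkbh5: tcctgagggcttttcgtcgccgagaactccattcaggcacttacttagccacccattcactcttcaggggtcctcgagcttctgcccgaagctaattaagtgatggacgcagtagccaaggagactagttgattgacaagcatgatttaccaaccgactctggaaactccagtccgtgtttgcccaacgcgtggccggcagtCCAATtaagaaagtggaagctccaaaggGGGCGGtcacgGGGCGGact
The Mettl3 window shares 4 bases with an annotated exon, and the Alkbh5 window lies inside the annotated gene but in no exon. The Mettl3 window held 2 copies of the YY1 core and no match to the other motifs. At least 1 copy of that core is held by 3.91% of 32851 windows of the same length, and the share with 2 was not counted. The Alkbh5 window held 1 CCAAT box and 2 GC boxes, motifs found in 33.8% and 32.7% of all windows, and the Fto window held none of the 6 motifs. CG pairs numbered 13, 18 and 14 in the Mettl3, Fto and Alkbh5 windows against a median of 6.0 over all windows. These matches describe letters and show no binding.

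In muscle, Alkbh5 was the most abundant member in every library at 11.2 to 28.1 FPKM, and its lowest value was above the highest of Fto, the next, at 6.44 to 10.7 FPKM. Wtap at 4.65 to 5.91 FPKM, Zc3h13 at 4.06 to 5.83 FPKM and Mettl3 at 3.59 to 4.97 FPKM overlapped each other. Cbll1 (1.55 to 3.07 FPKM), Mettl14 (1.29 to 2.54 FPKM), Rbm15b (1.27 to 2.91 FPKM), Rbm15 (1.19 to 1.80 FPKM) and Mettl16 (0.666 to 1.53 FPKM) were lower still, and their ranges ran into each other. Across the 10 libraries the highest value of a member was between 1.27 times (Wtap) and 2.51 times (Alkbh5) its lowest.

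**Figure D1:**
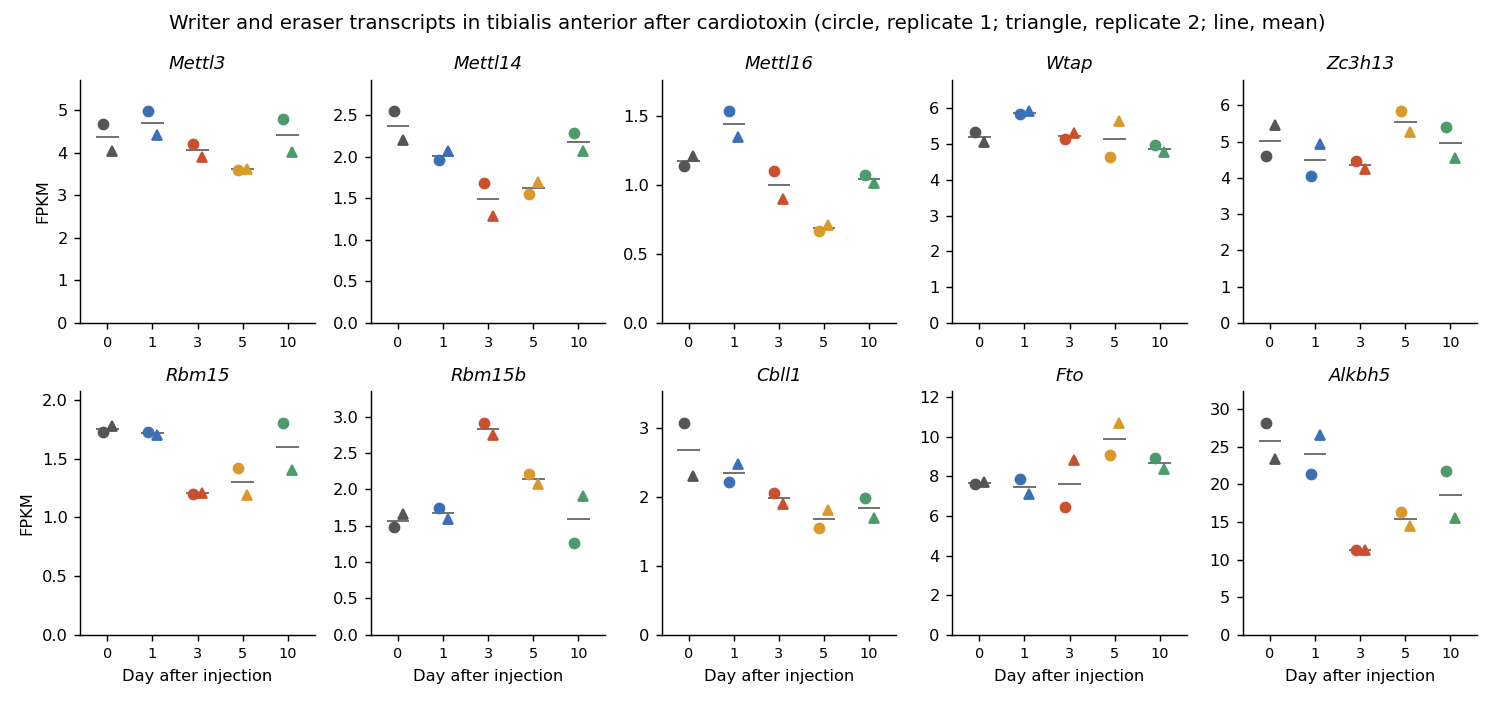
FPKM of the 10 members (vertical axes, each from 0) in each muscle library by day after cardiotoxin, with the mean of the 2 libraries as a line. Alkbh5 is lowest and Rbm15b highest on day 3, while Mettl3 and Wtap stay within narrow ranges.

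On day 3, when muscle repair replaces the destroyed fibres, the eraser Alkbh5 had fallen, the core subunit Mettl14 had fallen and the adaptor Rbm15b had risen relative to day 0, while the other 7 members did not pass the test. That is 3 of 10 members called (adjusted p no higher than 0.05), where 48.8% of all genes tested were called (24.5% higher and 24.3% lower). The members' share thus did not exceed that background. The median member changed by -0.21 on the log2 scale and the median of all genes by 0.008.

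Mettl3 measured 4.68 and 4.04 FPKM on day 0, 4.97 and 4.41 on day 1, 4.21 and 3.89 on day 3, 3.59 and 3.63 on day 5, then 4.79 and 4.02 on day 10. Its highest value was on day 1 and its lowest on day 5, and the libraries of day 3 overlapped those of day 10. From day 0 to day 3 the log2 fold change was -0.10 (SE 0.15, 95% interval -0.45 to 0.25, adjusted p = 0.607, limma), an interval that includes no change. Without day 0 replicate 1 the value was 0.0028. Over all 5 days the test for any change gave an adjusted p of 0.307 for Mettl3. In the annotation the exons of Mettl3 (chromosome 14, 52294841 to 52305128, minus strand) share 933 bases, 18.4% of their length, with those of Tox4 on the opposite strand. Whether the counting used strand is not stated, and Tox4 itself stood at 9.31 to 12.5 FPKM in muscle, above Mettl3.

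Mettl14, which shares no exon with another gene, measured 2.54 and 2.20 FPKM on day 0, 1.96 and 2.06 on day 1, 1.69 and 1.29 on day 3, 1.56 and 1.70 on day 5, then 2.28 and 2.06 on day 10. Both day 3 libraries lay below both of days 0, 1 and 10, and overlapped those of day 5. The share of all genes with that order was not counted. On the log2 scale the change from day 0 to day 3 was -0.65 (SE 0.18, adjusted p = 0.0193), a fall of 1.57-fold, and from day 3 to day 10 it was 0.53 (SE 0.18, adjusted p = 0.0509), which missed the threshold. The fall was not called without day 0 replicate 1 (-0.55, adjusted p = 0.107) or without day 3 replicate 2 (-0.46, adjusted p = 0.127), nor in a fit of days 0 and 3 alone (adjusted p = 0.0589).

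Within each library, the ratio of Mettl3 to Mettl14 FPKM, the transcripts of the subunits that form the catalytic pair, was 1.84 in both day 0 libraries, 2.54 and 2.14 on day 1, 2.50 and 3.03 on day 3, 2.31 and 2.14 on day 5, then 2.10 and 1.95 on day 10. The 2 day 0 values lay below all 8 later ones. This ratio is a description and was not tested, and how many other gene pairs set day 0 apart in this way was not counted.

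Among the regulatory subunits, Rbm15b measured 1.48 and 1.66 FPKM on day 0, 1.75 and 1.59 on day 1, 2.91 and 2.75 on day 3, 2.21 and 2.08 on day 5, then 1.27 and 1.91 on day 10. Both day 3 libraries stood above all 8 others, as they did for 18.8% of genes tested. Its log2 fold change was 0.81 (SE 0.20, adjusted p = 0.0132) from day 0 to day 3, 0.73 (SE 0.20, adjusted p = 0.0319) from day 1 to day 3 and -0.82 (SE 0.20, adjusted p = 0.0170) from day 3 to day 10. The rise from day 0 kept its size but not its call without day 0 replicate 1 (0.74, adjusted p = 0.0731), without day 3 replicate 1 (0.77, adjusted p = 0.0676) or without day 3 replicate 2 (0.85, adjusted p = 0.0544). The rise from day 1 lost its call without any single library of days 1, 3 or 5, and the fall to day 10 without either day 3 library or day 10 replicate 1 (-0.54). That fall was called in 15 of 20 alternatives, and not in a fit of days 3 and 10 alone. Its exons share 75 bases with Dcaf1 on the opposite strand and 14 with Manf on the same strand, 1.2% and 0.2% of its length. Dcaf1 measured 3.03 and 3.06 FPKM on day 0 and 1.83 and 1.75 on day 3, opposite to Rbm15b, and Manf 4.19 and 5.48 FPKM on day 0 and 16.6 and 13.3 on day 3.

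Rbm15, the close relative of Rbm15b that also binds RNA for the complex, took the opposite course in its values. It measured 1.73 and 1.78 FPKM on day 0, 1.73 and 1.70 on day 1, 1.20 and 1.21 on day 3, 1.42 and 1.19 on day 5, then 1.80 and 1.40 on day 10. Between days 0 and 3 the log2 fold change was -0.50 (SE 0.18), with an adjusted p of 0.0504 that missed the threshold. On day 0 both Rbm15b values lay below both Rbm15 values, and on day 3 both lay above them.

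Wtap, the subunit that brings the catalytic pair to nuclear speckles, varied least, with 5.33 and 5.05 FPKM on day 0 and 5.15 and 5.32 on day 3. Zc3h13 measured 4.60 and 5.46 FPKM on day 0, 4.46 and 4.26 on day 3, then 5.83 and 5.27 on day 5, with overlap between days 0 and 5. Cbll1, an E3 ubiquitin ligase in the complex, measured 3.07 and 2.30 FPKM on day 0, 2.05 and 1.90 on day 3, then 1.55 and 1.81 on day 5. Its log2 fold change from day 0 to day 3 was -0.41 (SE 0.19, adjusted p = 0.109). None of these 3 was called in any comparison of days. Exons of Cbll1 share 17.6% of their length with the antisense gene Gm29542, which itself stood at 2.46 to 4.46 FPKM in muscle. Virma, the remaining subunit of the complex and not a member of the list, measured 2.56 and 2.62 FPKM on day 0 and 3.84 and 3.47 on day 3, a log2 fold change of 0.48 (SE 0.16, adjusted p = 0.0363).

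Mettl16 differed most on day 5 rather than day 3. It measured 1.13 and 1.21 FPKM on day 0, 1.53 and 1.34 on day 1, 1.10 and 0.898 on day 3, 0.666 and 0.708 on day 5, then 1.07 and 1.02 on day 10. Both day 5 libraries were the lowest of the 10 and both day 1 libraries the highest, an order that was not counted over all genes. The test for any change over the 5 days called it (F = 6.97, adjusted p = 0.0314), although none of the 6 comparisons between pairs of days that were made did, and that from day 0 to day 3 was -0.22 (SE 0.19, adjusted p = 0.377). The call held in 10 of the 19 alternative settings of that test.

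Of the erasers, Alkbh5 fell by day 3 and rose again by day 10, while Fto was not called. Alkbh5 measured 28.1 and 23.4 FPKM on day 0, 21.4 and 26.6 on day 1, 11.2 and 11.3 on day 3, 16.3 and 14.4 on day 5, then 21.8 and 15.5 on day 10. Both day 3 libraries lay below all 8 others, as they did for 19.0% of genes tested. The log2 fold change was -1.18 from day 0 to day 3 (SE 0.20, adjusted p = 0.00237), a fall of 2.27-fold, and -1.07 from day 1 to day 3 (SE 0.20, adjusted p = 0.00774), the latter not called without day 3 replicate 2 (adjusted p = 0.0540). From day 3 to day 10 it was 0.70 (SE 0.20, adjusted p = 0.0263), and day 10 against day 0 gave -0.48 (SE 0.20, adjusted p = 0.472), between -0.72 and -0.24 with 1 library left out and not called in any of 20 alternatives. The fall from day 0 to day 3 passed the test in all 20 alternative settings, between -1.31 and -0.96. The rise to day 10 was called in 15 of 20 alternatives. It was not called without day 3 replicate 1, day 3 replicate 2 or day 10 replicate 1 (0.69, 0.71 and 0.46), nor in a fit of days 3 and 10 alone.

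Fto measured 7.61 and 7.72 FPKM on day 0, 7.88 and 7.08 on day 1, 6.44 and 8.82 on day 3, 9.09 and 10.7 on day 5, then 8.93 and 8.37 on day 10. Its day 3 libraries lay on either side of those of day 0, and it was not called in any comparison of days. The ratio of Alkbh5 to Fto FPKM within a library was 3.70 and 3.04 on day 0, 2.72 and 3.75 on day 1, 1.74 and 1.28 on day 3, 1.79 and 1.35 on day 5, then 2.44 and 1.85 on day 10. The 4 values of days 0 and 1 lay above the 6 later ones. The ratio was not tested, and the share of gene pairs with such an order was not counted.

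**Figure D2:**
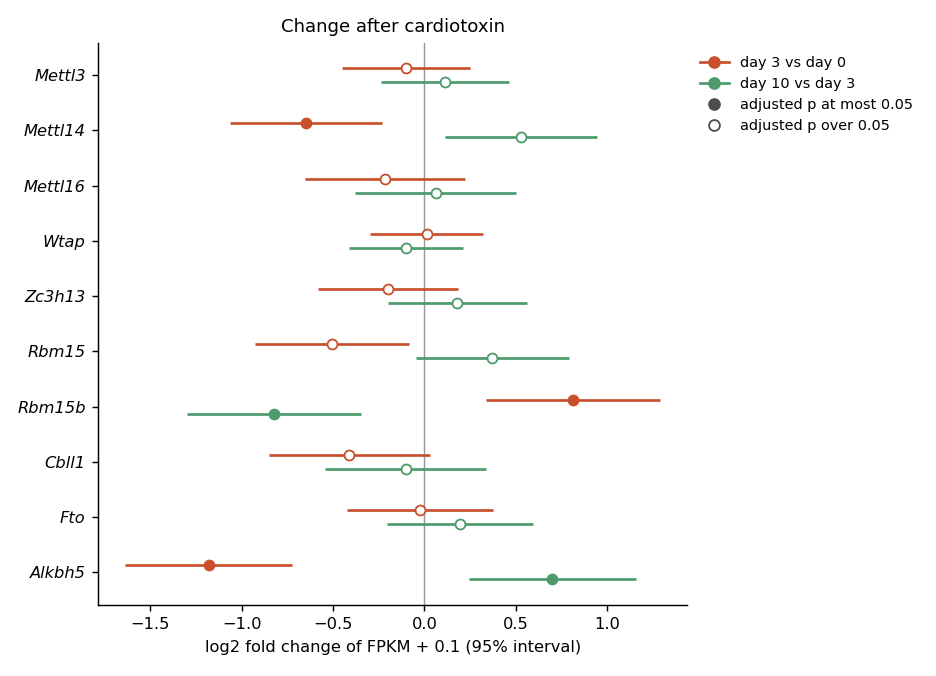
Log2 fold change of FPKM + 0.1 (horizontal axis) with its 95% interval from day 0 to day 3 and from day 3 to day 10 for each member, filled where the adjusted p was at most 0.05. Alkbh5 and Rbm15b are called in both, in opposite directions, and Mettl14 from day 0 to day 3.

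**Figure D3:**
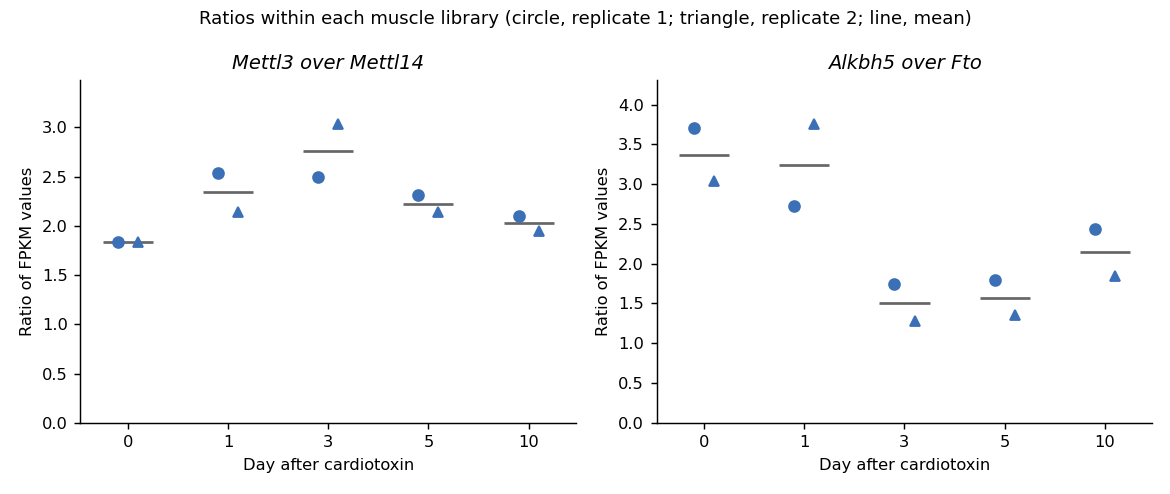
Ratios of FPKM values within each muscle library (vertical axes from 0) by day, with the mean of the 2 libraries as a line. Mettl3 over Mettl14 is lowest on day 0 at 1.84, and Alkbh5 over Fto is lower on days 3, 5 and 10 than on days 0 and 1.

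In the other comparisons of days, 0 of 10 members were called from day 0 to day 1 (6.0% of all genes), 2 from day 1 to day 3 (31.1%), 0 from day 3 to day 5 (12.7%), 2 from day 3 to day 10 (37.9%) and 0 from day 0 to day 10 (0.00597%). By unadjusted p under 0.05, the counts of members where none was called were 0 from day 0 to day 1 (26.8% of all genes), 1 from day 3 to day 5 (29.4%) and 2 from day 0 to day 10 (10.1%) (limma). The test for any change over the days called 3, Alkbh5 (adjusted p = 0.0112), Mettl16 and Rbm15b (adjusted p = 0.0421), against 43.0% of all genes. Of its 19 alternative settings, 17 called Alkbh5 and 6 called Rbm15b. With a term for libraries that express Xist, Alkbh5 (-1.17, adjusted p = 0.0176) and Mettl14 (-0.83, adjusted p = 0.0230) were still called from day 0 to day 3, Rbm15b was not (0.77, adjusted p = 0.0676), and no member was called from day 1 to day 3. From day 3 to day 10 that fit called 1 member. Which member is not given here, so Alkbh5, Rbm15b or both lost their call. The share of all genes called in that fit is not given here either.

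The makeup of the muscle moved with these values. From day 0 to day 3 the 7 muscle fibre markers were all lower in both libraries, their summed level going from 49650 to 55450 FPKM down to 12130 to 15550 FPKM. The 8 leukocyte markers summed to 36.6 to 77.1 FPKM on day 0 and to 1215 to 1219 FPKM on day 3, with 6 of 8 higher and 1 lower in both libraries, and the 4 markers of satellite cells and myoblasts, the 4 fibroadipogenic and the 4 cycling markers were all higher. The 3 endothelial markers were all lower (44.6 to 65.3 FPKM on day 0 and 26.8 to 34.4 FPKM on day 3), as was 1 of 2 Schwann cell markers. None of these markers was at 0 in a day 3 library, and their part in the changes of the members was not tested. In bulk tissue, fewer cells of a type and less RNA per cell cannot be told apart.

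In C2C12 cells, the order of the members differed in part from that in muscle. Rbm15b stood above Mettl3 of CTRL cells, where in muscle it lay below Mettl3 in every library. The cell and muscle values were scaled separately and were not tested against each other. Alkbh5 at 22.7 to 41.0 FPKM and Fto at 17.4 to 28.6 FPKM were again highest and here overlapped, followed by Wtap (8.36 to 14.0 FPKM), Rbm15b (8.51 to 11.6 FPKM) and Zc3h13 (5.24 to 9.70 FPKM), which also overlapped. Rbm15 (2.85 to 8.56 FPKM), Mettl3 in CTRL cells (4.68 to 5.65 FPKM), Cbll1 (3.95 to 6.06 FPKM), Mettl16 (2.27 to 2.88 FPKM) and Mettl14 (1.70 to 3.23 FPKM) followed. The ranges of Rbm15, Mettl3 and Cbll1 ran into that of Zc3h13, and in Cas9M3 GM replicate 2 Rbm15 (8.56 FPKM) was above both Rbm15b (8.51) and Zc3h13 (7.93).

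Mettl3 was nearly absent from Cas9M3 cells at both stages, in the direction the labels give. In CTRL cells it measured 4.70 and 5.65 FPKM in GM and 4.68 and 5.15 FPKM at D3. In Cas9M3 cells it measured 0.331 and 0.118 FPKM in GM and 0.148 and 0.0805 FPKM at D3, from 53, 11, 21 and 6 reads. Of the CTRL mean of the stage, 6.39% (exact Poisson 95% interval 4.79% to 8.36%) and 2.28% (1.14% to 4.08%) were left in GM, and 3.02% (1.87% to 4.62%) and 1.64% (0.601% to 3.56%) at D3. These intervals cover counting error in the Cas9M3 library only.

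The log2 fold change of Mettl3 at D3 was -4.56 (SE 0.40, adjusted p = 0.0187), and Mettl3 was the 1 member of 10 called, where 1.98% of all genes were called (1.29% higher and 0.687% lower). In GM the fold change was -4.10 (SE 0.40, 95% interval -5.07 to -3.13) with an unadjusted p of 3.7e-05 and an adjusted p of 0.188. That comparison called 0 of 13824 genes (0%), with 1244 genes at an unadjusted p under 0.05. The D3 call rested on all 4 libraries of that stage, since leaving out any of them gave -4.80 to -4.33 with adjusted p of 0.213 to 0.262. Taken over both stages, a comparison added after the values had been seen, the fold change was -4.33 (SE 0.28, adjusted p = 0.00998). It too lost its call when any D3 library was left out, with adjusted p of 0.0919 to 0.136. The difference between the effects at D3 and in GM was -0.47 (SE 0.57, adjusted p = 0.839), and without Cas9M3 GM replicate 1 it was 0.026. Tox4, whose exons overlap Mettl3, stood at 8.72 to 11.2 FPKM in all 8 cell libraries, with -0.26 at D3 (SE 0.15, adjusted p = 0.466) and 0.07 in GM (SE 0.15, adjusted p = 0.903).

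**Figure D4:**
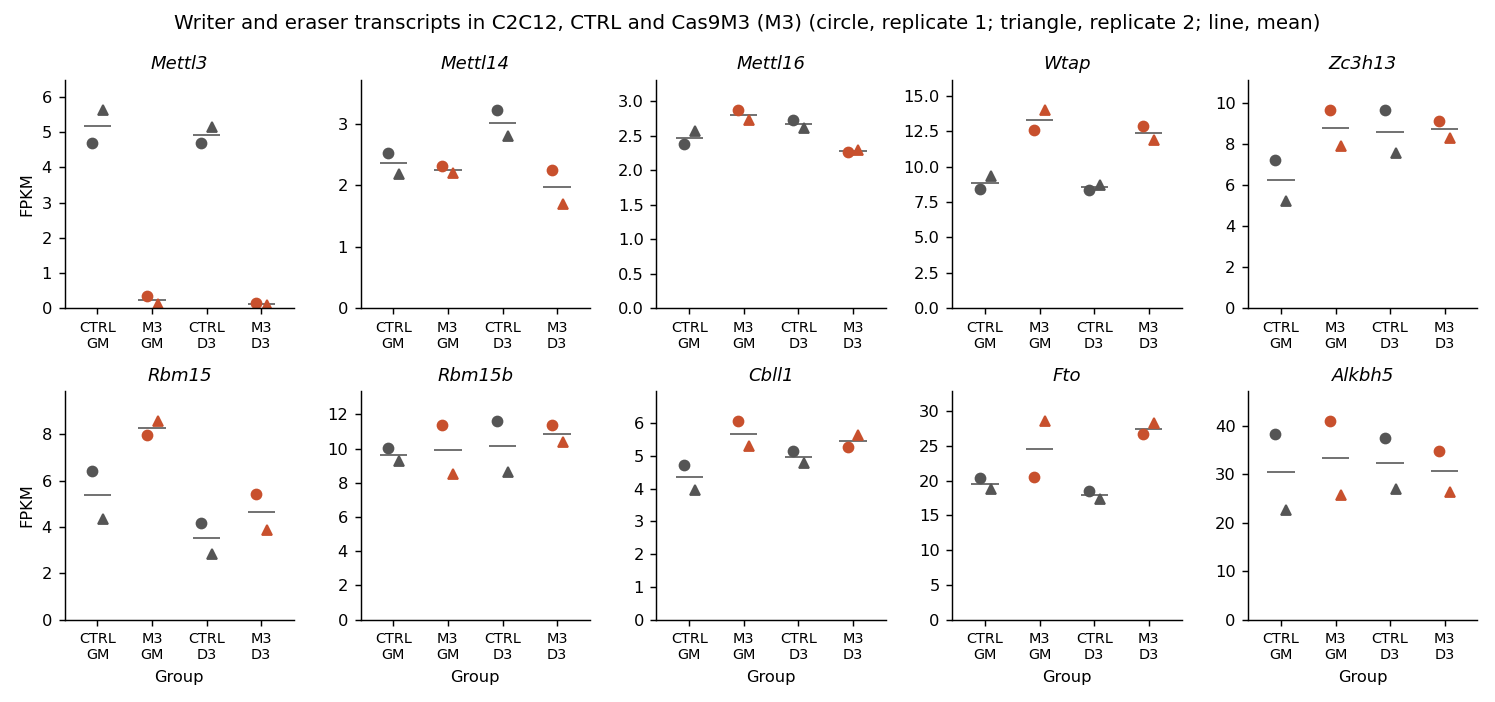
FPKM of the 10 members (vertical axes, each from 0) in each C2C12 library of the 4 groups, with the mean of the 2 libraries as a line (M3, Cas9M3). Mettl3 is below 0.34 FPKM in the 4 Cas9M3 libraries, and Wtap is higher in all 4 of them than in the 4 CTRL libraries.

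The question of compensation was put to the 9 members other than Mettl3, of which Mettl16, Fto and Alkbh5 are not subunits of the complex. None of the 9 passed the test in GM, at D3 or over both stages. The GM comparison called 0 of 13824 genes and missed Mettl3 itself (-4.10, adjusted p = 0.188, limma), so it cannot decide the question. At D3, 1.98% of all genes were called. Over both stages 1 of 10 members was called, Mettl3, where 1.97% of all genes were called. Those whose 4 Cas9M3 values all lay above the 4 CTRL values were Wtap, Fto and Cbll1, described first.

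Wtap measured 8.39 and 9.33 FPKM in CTRL GM, 8.36 and 8.72 in CTRL D3, 12.6 and 14.0 in Cas9M3 GM, and 12.9 and 11.9 in Cas9M3 D3. All 4 Cas9M3 libraries lay above all 4 CTRL libraries. Expressed as a log2 fold change, the difference was 0.58 in GM (SE 0.16, 95% interval 0.19 to 0.97, adjusted p = 0.417) and 0.53 at D3 (SE 0.16, 0.14 to 0.92, adjusted p = 0.160). Over both stages it was 0.56 (SE 0.11, 0.28 to 0.83), 1.47-fold, with an unadjusted p of 0.00239 and an adjusted p of 0.0714. In a limma fit of the D3 groups alone the same difference was called (adjusted p = 0.0348). The share of all genes called in that fit is not given here, and the 1.98% of the main fit does not apply to it. Without CTRL GM replicate 1 the difference over both stages was 0.52.

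Fto measured 20.4 and 18.8 FPKM in CTRL GM, 18.6 and 17.4 in CTRL D3, 20.5 and 28.6 in Cas9M3 GM, and 26.7 and 28.3 in Cas9M3 D3. All 4 Cas9M3 libraries lay above all 4 CTRL libraries, although Cas9M3 GM replicate 1 was close to CTRL GM replicate 1. The log2 fold change was 0.30 in GM (SE 0.20, adjusted p = 0.702), 0.61 at D3 (SE 0.20, adjusted p = 0.184) and 0.46 over both stages (SE 0.14, adjusted p = 0.178). In a limma fit of the D3 groups alone it was called (adjusted p = 0.0230), but the share of all genes called in that fit is not given here.

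Cbll1 measured 4.73 and 3.95 FPKM in CTRL GM, 5.15 and 4.78 in CTRL D3, 6.06 and 5.29 in Cas9M3 GM, and 5.28 and 5.62 in Cas9M3 D3. Again all 4 Cas9M3 libraries lay above all 4 CTRL libraries, and over both stages the log2 fold change was 0.26 (SE 0.13, adjusted p = 0.388). Such a complete separation upward was found for 5.06% of all genes tested and downward for 3.15%. Of the members, 3 (Wtap, Fto and Cbll1) separated upward and 1 (Mettl3, the target) downward.

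Mettl14, the partner of Mettl3, measured 2.52 and 2.19 FPKM in CTRL GM and 2.31 and 2.20 in Cas9M3 GM, with overlap. At D3 it measured 3.23 and 2.81 FPKM in CTRL and 2.25 and 1.70 in Cas9M3, both lower. How many of all genes tested were lower in both D3 libraries was not counted. The log2 fold change at D3 was -0.60 (SE 0.23, 95% interval -1.16 to -0.04, adjusted p = 0.255). With the replicate number as a block that interval was -1.08 to -0.12 (adjusted p = 0.149, limma). Over both stages the log2 fold change was -0.33 (SE 0.16, -0.72 to 0.07, adjusted p = 0.374). The ratio of Mettl3 to Mettl14 FPKM went from 1.45 to 2.58 in the CTRL libraries to 0.0474 to 0.143 in the Cas9M3 libraries.

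Rbm15 measured 6.42 and 4.34 FPKM in CTRL GM, 4.17 and 2.85 in CTRL D3, 7.94 and 8.56 in Cas9M3 GM, and 5.43 and 3.88 in Cas9M3 D3. Cas9M3 and CTRL were apart in GM (log2 fold change 0.63, SE 0.30, adjusted p = 0.597, limma). They overlapped at D3, although Cas9M3 was the higher of each same-numbered pair. Over both stages the log2 fold change was 0.52 (SE 0.21, adjusted p = 0.281). With the replicate number as a block its interval was 0.13 to 0.91 (SE 0.16, adjusted p = 0.132), still not called. Rbm15b measured 8.66 to 11.6 FPKM in CTRL and 8.51 to 11.4 FPKM in Cas9M3 cells, which did not separate. Zc3h13 measured 7.24 and 5.24 FPKM in CTRL GM and 9.70 and 7.93 in Cas9M3 GM. At D3 its values overlapped (9.67 and 7.55 against 9.12 and 8.33). In GM its log2 fold change was 0.50 (SE 0.24, adjusted p = 0.595, limma). The block gave an interval of 0.11 to 0.90 there (adjusted p = 0.334). For Rbm15 and Zc3h13, the share of all genes that lie apart in GM in this way was not counted.

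Mettl16 measured 2.37 and 2.57 FPKM in CTRL GM against 2.88 and 2.73 in Cas9M3 GM, and 2.72 and 2.61 in CTRL D3 against 2.27 and 2.29 in Cas9M3 D3. It was thus higher in Cas9M3 cells in GM and lower at D3, in all libraries. The share of all genes with this pattern was not counted. The difference between the effects was -0.40 (SE 0.27, 95% interval -1.04 to 0.25, adjusted p = 0.723).

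Alkbh5 measured 38.4 and 22.7 FPKM in CTRL GM, 37.6 and 27.0 in CTRL D3, 41.0 and 25.8 in Cas9M3 GM, and 34.9 and 26.4 in Cas9M3 D3. In each group replicate 1 was the higher, and the groups overlapped. The log2 fold change over both stages was 0.04 (SE 0.26, 95% interval -0.58 to 0.66, adjusted p = 0.968). With the replicate number as a block the interval was narrower, -0.24 to 0.32 (SE 0.11, adjusted p = 0.879). Virma measured 11.9 and 7.57 FPKM in CTRL GM against 17.0 and 17.8 in Cas9M3 GM (log2 fold change 0.87, SE 0.25, adjusted p = 0.426), and at D3 16.1 and 12.9 against 14.8 and 14.3.

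**Figure D5:**
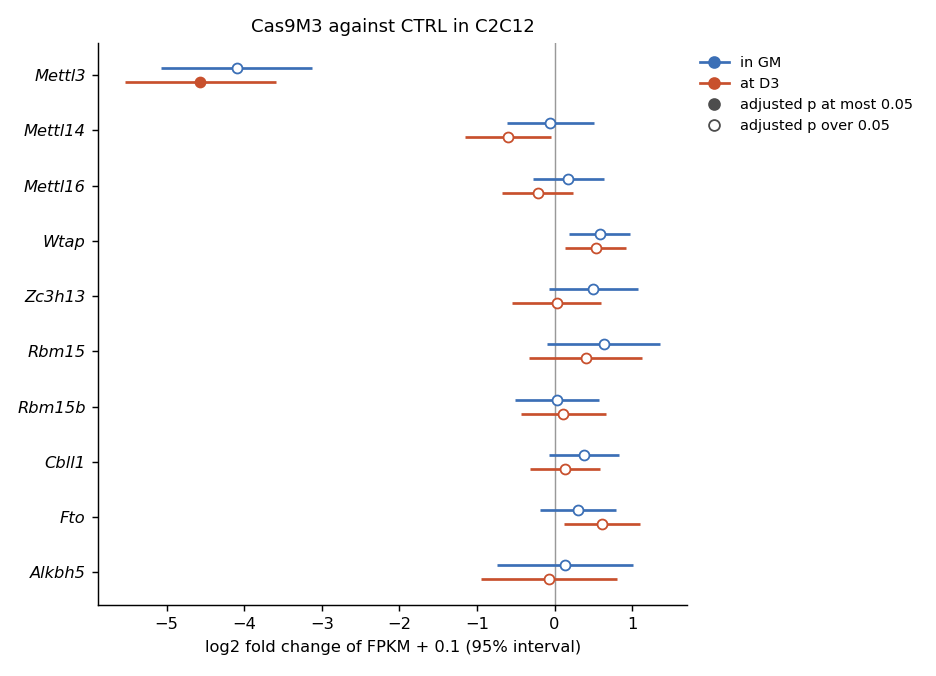
Log2 fold change of FPKM + 0.1 (horizontal axis) between Cas9M3 and CTRL cells, with its 95% interval, in GM and at D3 for each member, filled where the adjusted p was at most 0.05. Mettl3 is at -4.10 and -4.56, and the intervals of Wtap stay above 0 at both although neither was called.

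From GM to D3, 0 of 10 members were called in CTRL cells, where 1.14% of all genes were, and 0 of 10 in Cas9M3 cells, where 0.0289% were (limma). By unadjusted p under 0.05 these counts were 0 (18.2% of all genes) and 1 (12.6%), the latter being Rbm15. In CTRL cells the members changed by -0.60 (Rbm15) to 0.47 (Zc3h13) on the log2 scale, and Mettl3 by -0.07 (SE 0.40). The difference of the Cas9M3 effect between the stages was called for 0 of 10 members and for 0% of genes, with 0 members and 8.67% of genes at an unadjusted p under 0.05.

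Markers of differentiation moved with the D3 comparison. All 5 myotube genes (Myog, Myh3, Ckm, Acta1 and Mymk) were lower in both Cas9M3 D3 libraries than in both CTRL D3 libraries, with summed levels of 13.9 to 18.7 FPKM against 653 to 747 FPKM. Myog, the transcription factor of early differentiation, measured 3.50 and 2.28 FPKM against 89.1 and 83.3, and all 4 cycling markers were lower too (at most 24.0 FPKM in sum against at least 52.7 FPKM). In these markers the Cas9M3 libraries labelled D3 thus did not resemble the CTRL libraries of D3. In GM the myotube genes separated for 0 of 5, and their sums ran from 14.7 to 125.5 FPKM in CTRL and from 3.39 to 92.8 FPKM in Cas9M3. Leukocyte (1.89 to 10.5 FPKM in sum), endothelial (0.00665 to 0.110 FPKM) and Schwann cell (0.137 to 0.357 FPKM) markers stayed low in all 8 libraries, with Adgre1, Itgam and S100a9 at 0 in each. The fibroadipogenic markers did not, with sums of 288 to 806 FPKM. The part of differentiation in the D3 values of the members was not tested.

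Other genes of the pathway were read from lists. Of 9 further m6A, cap or S-adenosylmethionine genes (Virma, Zcchc4, Mettl5, Trmt112, Pcif1, Mettl4, Mat2a, Mat2b and Ahcy), 1 rose and 3 fell from day 0 to day 3, beside 48.8% of all genes called in either direction, led by Virma upward and by Mat2b, the regulatory subunit of methionine adenosyltransferase, downward (-0.96, adjusted p = 0.00122). Mat2b measured 14.1 and 12.8 FPKM on day 0, 7.30 and 6.39 on day 3, then 11.7 and 10.1 on day 10. It was the 1 gene of the list that fell from day 1 to day 3 (-0.48) and the 1 that rose from day 3 to day 5 (0.54) and to day 10 (0.66), and no gene of the list was called from day 0 to day 1 or from day 0 to day 10.

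Of 13 readers, proteins that bind the mark or RNAs that carry it, 11 were tested in muscle and 2 rose and 1 fell from day 0 to day 3, a share below the 48.8% of all genes called. The largest rise was that of Igf2bp2, which stabilizes bound transcripts, at 0.315 and 0.378 FPKM in the day 0 libraries, 6.32 and 2.56 FPKM in those of day 1, and 1.25 and 1.84 FPKM in those of day 3. Against day 0 its log2 fold change was 3.21 by day 1 (adjusted p = 0.0204) but 1.86 by day 3 (adjusted p = 0.0120). Ythdf1 was the reader that fell by day 3 (-0.38, adjusted p = 0.0481), and Hnrnpc fell from day 3 to day 5 (-0.56, adjusted p = 0.0345). In the Cas9M3 and GM to D3 comparisons, 0 of the 9 genes and 0 of the 11 readers tested were called.

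By likeness of log2 values to Mettl3, the closest in the 10 muscle libraries, out of 12284 genes averaging 1 FPKM or more, were Thoc1 (Pearson r = 0.971), Hsf4 (0.939) and Gm44709 (0.933). In the 8 cell libraries the closest of 11548 genes were Gm5662 (0.993), Opa3 (0.985) and Gm2016 (0.980), a likeness that the contrast of Cas9M3 and CTRL sets. These are descriptions over libraries that share their groups and depth.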

How the data were processed

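RNA-seq of TA muscle (10 libraries) and C2C12 cells (8 libraries) was analysed. 8 Mettl3 or GFP overexpression libraries were not analysed here. Per the methods, the authors aligned reads to GRCm38 (Ensembl) with HISAT2, counted them per gene by featureCounts, and turned the counts into the deposited FPKM by DESeq2's fpkm function. Versions and the strand setting are not given in the sources used here. Since the 2 tables were scaled separately, no test crosses them. Sample titles gave the day or construct and the replicate number.

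A gene was tested where 2 or more libraries reached 0.5 FPKM. log2(FPKM + 0.1) was fitted with limma 3.58.1 (lmFit, eBayes with a trend) in R 4.3.3, all groups of a table together, with Benjamini-Hochberg adjustment over all genes and calls at an adjusted p of at most 0.05. Fold changes on this scale understate changes of low genes. Lengths from GENCODE M21 gave the depths, and 96.97% to 98.9% of low values were whole reads (within 0.05 read). Python 3.11.15, pandas 2.3.3 and matplotlib 3.10.9 made the tables and plots. The fit was tested on simulated data. Same-numbered libraries deviated together in cells (6 correlations of deviations, 0.278 to 0.680), so the numbers pair them by this measure. The main fit left this pairing out, and the replicate block took it in. The members and gene lists were chosen with earlier results of these data known. Named genes are the 10 members, Virma, genes that share exons with a called or targeted member, the called gene of each list with the largest change in each direction, and the 3 genes most like Mettl3.

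Alternatives were pseudocounts of 1 and 0.01, no filter, a filter at 1 FPKM, median-ratio and quantile scaling, only the groups compared, a replicate block, a term for Xist and each library left out. limma voom on reads recovered from the values, and the comparison over both stages, were chosen after seeing the data.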

Additional observations from a re-analysis of the deposited data

Results flagged for a closer look

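Mettl16, the writer outside the complex, had fold changes of opposite sign at the 2 stages of C2C12 cells, neither of which passed the test (0.18 in GM, adjusted p = 0.808, and -0.22 at D3, adjusted p = 0.655, limma). Every Cas9M3 library was above every CTRL library in GM and below every CTRL library at D3, and the difference of the effects was -0.40 on the log2 scale (adjusted p = 0.723 in limma, unadjusted p = 0.186), between -0.45 and -0.34 with 1 library left out. The test of the difference itself did not pass the threshold. How many of all genes tested change sides in this way was not counted, so the pattern is not shown to be unusual.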

How the results depend on the processing

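The fall of Alkbh5 from day 0 to day 3 kept its call in all 20 alternatives. With quantile normalization the members called numbered 6 from day 0 to day 3 (50.4% of all genes), 5 from day 1 to day 3 (34.2%) and 4 from day 3 to day 10 (40.7%), with Rbm15 (-0.82), Cbll1 (-0.63) and Mettl16 (-0.57) added on day 3, and the median of all genes moved from 0.008 to -0.116. With no filter 1 member was called from day 1 to day 3 and 1 over all days. With a term for Xist the counts were 0 from day 1 to day 3, 1 from day 3 to day 10 and 1 over all days. In fits of only the groups compared, 0 members were called from day 3 to day 10 and 3 (Mettl3, Wtap and Fto) between Cas9M3 and CTRL at D3. The cause of these differences was not tested. For settings other than quantile normalization, those with 1 library left out included, the share of all genes called is not given here. Their counts of members therefore cannot be set against those of all genes.

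With 1 library left out, the members called numbered 1 to 4 from day 0 to day 3, 0 to 2 from day 1 to day 3, 0 to 2 from day 3 to day 10, 0 to 3 over all days, 0 to 1 between Cas9M3 and CTRL at D3 and 0 to 2 over both stages. The Mettl3 fold change then ran from -4.59 to -3.61 in GM, from -4.80 to -4.33 at D3 and from -4.58 to -4.09 over both stages, and the difference between stages from -0.96 to 0.026. Values that changed sign were those of Mettl3 from day 0 to day 3 (-0.20 to 0.0028) and from GM to D3 in CTRL cells (-0.20 to 0.063), and of Alkbh5 over both stages (-0.15 to 0.23).

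With the replicate number as a block, Mettl3 stayed at -4.56 at D3 (adjusted p = 0.0158) and Wtap at 0.56 over both stages (adjusted p = 0.0584). The block changed no call of a member between 2 groups, and over all days it called 2 members in place of 3. In muscle the numbers did not pair the libraries, as 2 of 10 correlations of deviations were over 0.1 (-0.0187 to 0.211). The 6 to 53 reads behind Mettl3 in Cas9M3 libraries limit its residual level, and its fold change at D3 was -2.41 with a pseudocount of 1, -5.36 with one of 0.01 and -5.36 by voom.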
